A study of Mus musculus with 8 samples.

Results

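Claudin transcripts of the mouse kidney tubule were measured by microarray with and without cinacalcet hydrochloride, a calcimimetic drug that makes the calcium-sensing receptor more sensitive to calcium. The set comprised 10 genes: Cldn14, Cldn16, Cldn19, Cldn10, Cldn2, Cldn3, Cldn4, Cldn7, Cldn8 and Cldn1. They were chosen by name as claudins expressed along the nephron, with earlier results of these data known. They were found on the array through the accession of each probe, which gave 12 of 55681 non-control probes, with a pair of probes each for Cldn2 and Cldn4 and 1 for each other gene. Genes were tested where a probe stood well above background on 4 or more of the 8 arrays, and all 10 members were among the 14209 genes tested. The control group was 4 kidney samples from mice on standard chow. The treated group was 4 kidney samples from mice given cinacalcet at a labelled dose of 1 mg per g body weight for 5 days. The labels describe all mice as male and 12 weeks old, name no strain, mutation or second agent, and say of each sample only its number. P-values therefore measure the spread between these samples, and their precision is limited by there being 4 arrays per group.

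Claudins are small membrane proteins that span the lateral membrane and meet those of the neighbouring cell in the tight junction, where some form pores for particular ions and others seal the path between cells. In the thick ascending limb of the loop of Henle, the lumen-positive voltage drives calcium and magnesium between the cells through a pore that needs claudin-16 and claudin-19. Claudin-14 is expressed in the same segment, binds claudin-16 and blocks that pore, and its gene is known as a target of calcium-sensing receptor signalling. The other members sit in the proximal tubule (claudin-2, with a claudin-10 isoform), the distal nephron and collecting duct (claudin-3, -4, -7 and -8) and the capsule around the glomerulus (claudin-1).

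Levels are log2 spot intensity relative to the 75th percentile of the same array, so 0 is the brightness of that percentile and 1 unit is a doubling. The threshold for a call was an adjusted p of 0.05 in limma, a linear model fitted over all genes tested, with Benjamini-Hochberg adjustment. Fold changes are cinacalcet minus control on the log2 scale unless given as a fold. Levels of different genes came from different probes and were not ranked against each other.

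Sample control 4 and samples cinacalcet 2 and cinacalcet 3 went against the label male. Their arrays had 0 of 4 measured Y-linked genes well above background, and the X-inactivation transcript Xist lay at 0.95, 0.46 and 0.73 there. The remaining 5 arrays had 3 or 4 Y-linked genes above background, with Xist at -4.22 on cinacalcet 1 and between -6.99 and -6.38 on the rest. Values on either side of that split, or with a block for Y-linked signal in the fit, are given below for each member and for some of the other genes. All 8 arrays lay on 1 slide with 1 scan time, and 51.8% to 58.0% of spots per array were well above background.

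Cldn14 was the 1 member of 10 that rose past the threshold, and 0 of 10 fell in limma. At an unadjusted p under 0.05 there were 2 of 10, Cldn14 and Cldn10, beside 3969 of all 14209 genes tested. Over all genes tested, 8.02% passed in either direction, 3.37% higher and 4.64% lower, so a single call among 10 genes was near the background share and says nothing particular of the list. The members' median log2 fold change was 0.04, beside -0.03 for all genes tested. Groups did not overlap for 1 of 10 members, again Cldn14, beside 17.8% of all genes, 8.01% with cinacalcet higher and 9.80% with it lower.

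Cldn14, whose product restricts the calcium path of the thick ascending limb, was dim in control kidneys and many times brighter in cinacalcet kidneys. In controls 1 to 4 its level was -4.50, -4.80, -4.42 and -2.92. In cinacalcet samples 1 to 4 it was -1.07, 0.44, 0.36 and -1.06. Each cinacalcet sample was above each control sample, and the highest control, control 4, was one of the 3 arrays without Y-linked signal. The linear intensity of the spot was 11.3, 7.94, 10.6 and 26.8 in controls 1 to 4. In cinacalcet samples 1 to 4 it was 119, 323, 323 and 112. The probe was well above background on all 4 cinacalcet arrays and on 2 of 4 control arrays (1 and 4). On the 8 arrays the dimmest probe well above background had an intensity of 7.33 to 10.3, so the control level of Cldn14 lay close to the detection limit.

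The group mean of Cldn14 went from -4.16 ± 0.84 in control to -0.33 ± 0.84 with cinacalcet (SD, n = 4 each). The log2 fold change was 3.83 with a standard error of 0.51, a 95% interval of 2.64 to 5.01 and an adjusted p of 0.0104 in limma, which is 14.2-fold on this scale, with 2 of the 4 control spots not well above background. With the median spot signal and normexp background correction with an offset of 50, in place of the processed signal, the log2 fold change was 1.76 (adjusted p = 0.00988 in limma), so the size of the ratio differed between these settings. Each of the 8 fits that left out 1 array called Cldn14 higher, with log2 fold changes of 3.57 to 4.24 and adjusted p of 0.00617 to 0.0378. Within row 1 of arrays on the slide it was 4.25 and within row 2 it was 3.40 (adjusted p = 0.129 and 0.399 in limma, 2 arrays per group). Row 1 held cinacalcet 3, without Y-linked signal, and no control without it. Row 2 held control 4 and cinacalcet 2, both without it. With the slide column as a block, which sets only control 1 against cinacalcet 3 and control 3 against cinacalcet 2, the log2 fold change was 4.86 (adjusted p = 0.0731 in limma). Both of those controls had Y-linked signal and neither of those cinacalcet arrays did, so this value holds the treatment difference and that split together.

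**Figure D1:**
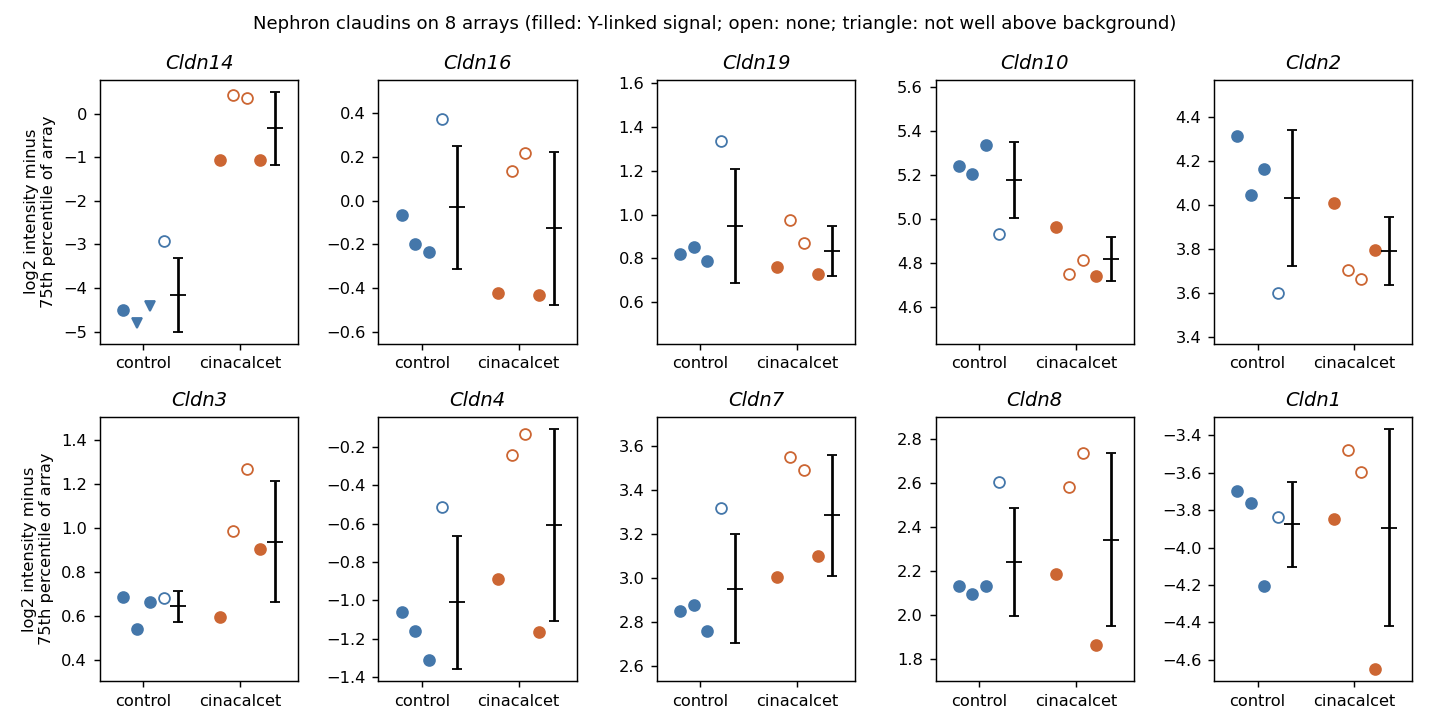
Level of each of the 10 claudins on each array, as log2 intensity relative to the 75th percentile of the array, for 4 control and 4 cinacalcet samples. Filled points are arrays with Y-linked signal, open points arrays without it, triangles spots not well above background, and bars the group mean with SD. The cinacalcet points of Cldn14 lie between -1.07 and 0.44, all above the controls at -4.80 to -2.92, while the groups overlap for the other 9 genes.

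Within each group, Cldn14 was higher on the arrays without Y-linked signal than on those with it. Control 4 was 1.65 log2 units above the mean of the other controls, and cinacalcet 2 and 3 were on average 1.46 above the mean of cinacalcet 1 and 4. The difference between treatments was similar on either side of this split. On the 5 arrays with Y-linked signal the log2 fold change was 3.51 (adjusted p = 0.00421 in limma). On the 3 arrays without it, 2 cinacalcet against 1 control, the log2 fold change was 3.32 (adjusted p = 0.0765 in limma, where 0 genes in all were called). With a block for Y-linked signal the log2 fold change was 3.44 with a standard error of 0.10, a 95% interval of 3.21 to 3.67 and an adjusted p of 2.01e-05 in limma.

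The sequence before the start of the gene is shown for Cldn14, which rose, and for its pore-forming partners Cldn16 and Cldn19, which were not called. Each run is the 250 bases upstream of a RefSeq transcript start in assembly GRCm38.p6, read 5′ to 3′ on the strand of the gene. Capitals mark the letters GGAAA or their reverse complement TTTCC, the core recognised by NFAT, the transcription factor family that calcineurin activates downstream of calcium.
Cldn14, first start, chr16:94008838-94009087, minus strand: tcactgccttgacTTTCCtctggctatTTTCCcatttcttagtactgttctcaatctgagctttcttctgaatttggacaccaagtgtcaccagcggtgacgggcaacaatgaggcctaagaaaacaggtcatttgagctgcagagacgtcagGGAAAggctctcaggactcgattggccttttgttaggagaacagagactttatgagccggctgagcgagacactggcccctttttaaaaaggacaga
Cldn14, second start, chr16:93929818-93930067, minus strand: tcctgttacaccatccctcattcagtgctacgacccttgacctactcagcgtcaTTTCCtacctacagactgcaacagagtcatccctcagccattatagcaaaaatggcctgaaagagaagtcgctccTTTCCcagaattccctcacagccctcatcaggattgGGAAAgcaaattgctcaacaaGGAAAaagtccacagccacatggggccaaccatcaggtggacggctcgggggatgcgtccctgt
Cldn16, chr16:26462885-26463134, plus strand: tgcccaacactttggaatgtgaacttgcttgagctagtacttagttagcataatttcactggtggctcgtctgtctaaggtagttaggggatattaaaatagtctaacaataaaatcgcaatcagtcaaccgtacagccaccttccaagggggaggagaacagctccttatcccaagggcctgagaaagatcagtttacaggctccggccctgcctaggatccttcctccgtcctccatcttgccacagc
Cldn19, first start, chr4:119255191-119255440, plus strand: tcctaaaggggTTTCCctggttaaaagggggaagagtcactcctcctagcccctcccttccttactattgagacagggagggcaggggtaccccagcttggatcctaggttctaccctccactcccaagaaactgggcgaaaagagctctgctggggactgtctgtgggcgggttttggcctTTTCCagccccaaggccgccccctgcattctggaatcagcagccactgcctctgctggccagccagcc
The first Cldn14 window held 3 matches and the second 4, the Cldn16 window held 0, and the first Cldn19 window held 2. The windows of Cldn7, which was not called either, held 3 and 2. Those of Cldn10, which also has a thick ascending limb isoform, held 1 and 0 and are not printed. Cldn14 has 1 more start in the table, whose window at chr16:93929568-93929817 adjoins the second and held 1 match, and Cldn19 has a second start, whose window at chr4:119255219-119255468 overlaps the first and held 1 match, and neither is printed. At least 1 match on either strand was present in 55.6% of 32851 RefSeq windows of this length, so such a match is common among promoters. The share of windows with several matches was not counted. Among the members 9 of 10 had at least 1 window in the promoter table, 14 windows in all, of which 9 held a match. The AP-1 letters TGANTCA, searched on both strands, were in 1 of those 14 windows, that of Cldn4, and in 6.75% of all windows. TATAAA, searched the same way, was in 1 of 14, that of Cldn2, and in 12.4% of all windows. These matches describe letters, not bound sites, and no binding was measured here.

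Cldn16 and Cldn19, which together make the paracellular pore for calcium and magnesium, were not called. Cldn16, mutated in an inherited form of renal magnesium and calcium wasting, was at -0.06, -0.20, -0.23 and 0.37 in controls 1 to 4. It was at -0.42, 0.14, 0.21 and -0.43 in cinacalcet samples 1 to 4. The groups overlapped, and the highest value of each belonged to arrays without Y-linked signal. Its log2 fold change was -0.09 with a 95% interval of -0.55 to 0.36 (adjusted p = 0.791 in limma). With a block for Y-linked signal Cldn16 was lower by a small amount, at a log2 fold change of -0.24 with an interval of -0.39 to -0.09 (adjusted p = 0.0437 in limma).

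Cldn19, the partner of claudin-16 that is mutated in a related wasting disease with eye defects, was at 0.82, 0.85, 0.79 and 1.34 in controls 1 to 4. In cinacalcet samples 1 to 4 it was at 0.76, 0.98, 0.87 and 0.73. Control 4 was the highest of all, and the other 7 arrays lay between 0.73 and 0.98. Cldn19 differed by -0.11 on the log2 scale, with a 95% interval of -0.42 to 0.19 (adjusted p = 0.608 in limma). With a block for Y-linked signal it was -0.20 (adjusted p = 0.139 in limma). In the fit to all 8 arrays, the interval for either pore gene excluded a doubling, a change of 1 log2 unit, in either direction.

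Cldn10 and Cldn2 encode pores for small ions, and neither was called. Cldn10 gives rise to an anion-pore isoform in the proximal tubule and a cation-pore isoform in the thick ascending limb, and which of them its single probe measures was not resolved here. Its level was 5.24, 5.21, 5.34 and 4.93 in controls 1 to 4. It was 4.96, 4.75, 4.82 and 4.74 in cinacalcet samples 1 to 4. Each cinacalcet sample was below controls 1 to 3, and cinacalcet 1 overlapped control 4. The mean was 5.18 ± 0.17 in control and 4.82 ± 0.10 with cinacalcet (SD, n = 4 each), a 1.28-fold lower level. The log2 fold change of -0.36 had a 95% interval of -0.60 to -0.13 and an adjusted p of 0.0674 in limma. It passed the threshold with a block for Y-linked signal, at -0.32 (adjusted p = 0.0432 in limma).

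Cldn2, the cation and water pore of the proximal tubule, was at 4.31, 4.05, 4.17 and 3.60 in controls 1 to 4 on its brighter probe. On that probe it was at 4.01, 3.70, 3.66 and 3.80 in cinacalcet samples 1 to 4. The groups overlapped, with the lowest value of all on control 4. The log2 fold change was -0.24 with a 95% interval of -0.60 to 0.12 (adjusted p = 0.357 in limma). The dimmer probe gave a difference of the same sign, -0.15 with an interval of -0.42 to 0.12 (adjusted p = 0.44 in limma over all 29732 kept probes, of which 6.04% were called). Without control 4, both genes were called lower, Cldn10 at -0.44 (adjusted p = 0.0134 in limma) and Cldn2 at -0.38 (adjusted p = 0.0431 in limma). That fit called 3356 of all 14209 genes. Neither gene was called in any of the other 7 fits that left out 1 array, which called 218 to 964 genes.

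**Figure D2:**
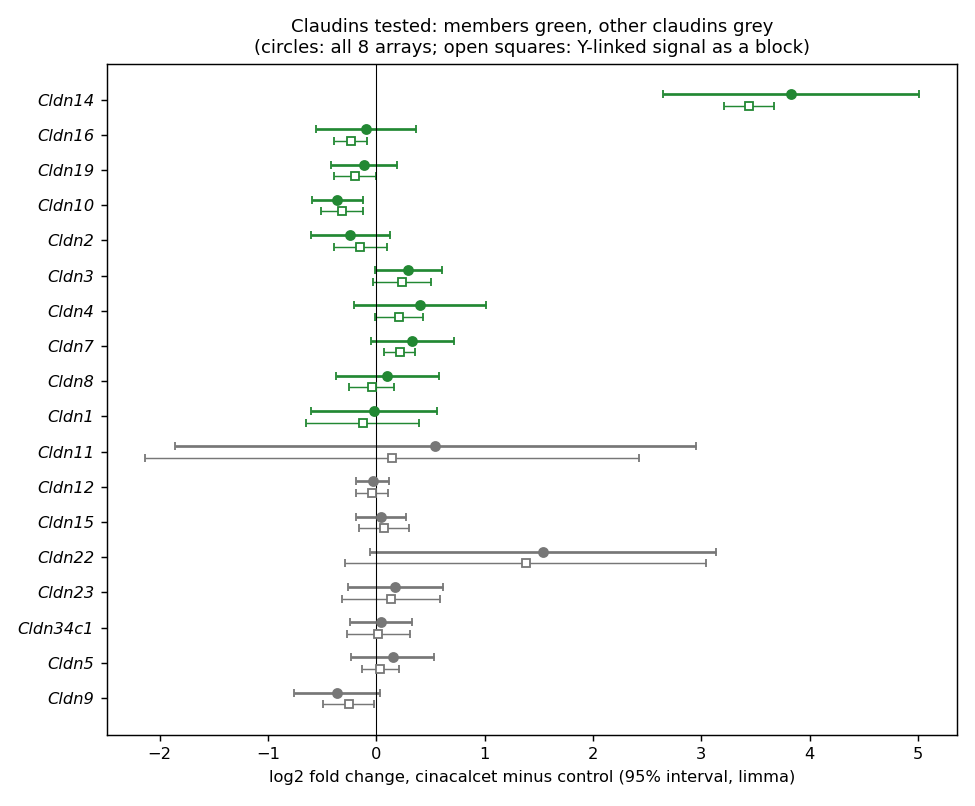
Log2 fold change, cinacalcet minus control, of the 10 members and the other claudins tested. Circles are the fit to all 8 arrays with its 95% interval, and open squares the fit with a block for Y-linked signal. Cldn14 lies at 3.83, and each other interval of the fit to all 8 arrays includes 0 or, for Cldn10 (-0.60 to -0.13), lies below it without passing the adjusted threshold.

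The 4 claudins of the distal nephron and collecting duct had mean levels slightly higher with cinacalcet, and none passed the threshold. Cldn7, a claudin of the basolateral membrane as well as the junction in these segments, was at 2.85, 2.88, 2.76 and 3.32 in controls 1 to 4. It was at 3.00, 3.55, 3.49 and 3.10 in cinacalcet samples 1 to 4. The groups overlapped through control 4 alone. The log2 fold change of 0.33 had a 95% interval of -0.05 to 0.72 (adjusted p = 0.236 in limma), and with a block for Y-linked signal it was 0.22, with an interval of 0.07 to 0.36 (adjusted p = 0.0492 in limma).

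Cldn3, a sealing claudin, was at 0.69, 0.54, 0.66 and 0.68 in controls 1 to 4. In cinacalcet samples 1 to 4 it was at 0.60, 0.99, 1.27 and 0.90. The controls were close together, and 3 of 4 cinacalcet samples were above all of them. Its log2 fold change was 0.30 with a 95% interval of -0.01 to 0.60 (adjusted p = 0.196 in limma). With a block for Y-linked signal it was 0.24 (adjusted p = 0.189 in limma).

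Cldn4, which pairs with claudin-8 to form the chloride path of the collecting duct, was at -1.06, -1.16, -1.31 and -0.51 in controls 1 to 4 on its brighter probe. On that probe it was at -0.89, -0.24, -0.13 and -1.16 in cinacalcet samples 1 to 4. The 3 highest values were those of the arrays without Y-linked signal, whichever the group. The log2 fold change was 0.40 with a 95% interval of -0.21 to 1.02 (adjusted p = 0.357 in limma), and the block for Y-linked signal gave 0.21 (adjusted p = 0.158 in limma). The dimmer probe gave 0.43, with an interval of -0.05 to 0.90 (adjusted p = 0.235 in limma over all kept probes).

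Cldn8, the partner that recruits claudin-4 to the junction, was at 2.13, 2.09, 2.13 and 2.61 in controls 1 to 4. It was at 2.19, 2.58, 2.73 and 1.86 in cinacalcet samples 1 to 4. Here too the 3 arrays without Y-linked signal were the highest of the 8. Cldn8 differed by 0.10 on the log2 scale, with a 95% interval of -0.37 to 0.58 (adjusted p = 0.781 in limma), and it was -0.04 with a block for Y-linked signal.

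Cldn1, a barrier claudin of the parietal cells that line the glomerular capsule, was well above background on all 8 arrays, as were the other members except Cldn14. It was at -3.70, -3.76, -4.21 and -3.83 in controls 1 to 4. In cinacalcet samples 1 to 4 it was at -3.85, -3.48, -3.59 and -4.65. The groups overlapped across nearly their whole range. Its log2 fold change was -0.02, with a 95% interval of -0.60 to 0.56 (adjusted p = 0.969 in limma).

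Several of the members varied together within the groups along the split in Y-linked signal. In both groups the arrays without that signal were above every array with it for 6 of 10 members: Cldn14, Cldn16, Cldn19, Cldn4, Cldn7 and Cldn8. Such an order held for 15.4% of all genes tested, and the opposite order for 22.0%. Cldn2 was the 1 member of 10 with the opposite order, and Cldn10, Cldn3 and Cldn1 had neither. Of 8 other claudins tested, 1 had the first order (Cldn5), 1 the opposite (Cldn9) and 6 neither. Of 30 tight junction partners, 10 had the first order, 2 the opposite and 18 neither. The step was 0.54 log2 units in controls and 0.60 in cinacalcet samples for Cldn16, 0.66 and 0.84 for Cldn4, and -0.58 and -0.22 for Cldn2. With 1 array without Y-linked signal among the controls, these steps are a description with no test. Among nephron markers the same order was found for 4 of 6 tested for the thick ascending limb, 4 of 4 for the distal convoluted tubule, 6 of 7 for intercalated cells and 5 of 6 for podocytes, and for 2 of 6 for principal cells, 1 of 3 for the thin limb and 2 of 6 for the proximal tubule, where 2 more had the opposite order. Their part in the claudin steps was not tested.

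**Figure D3:**
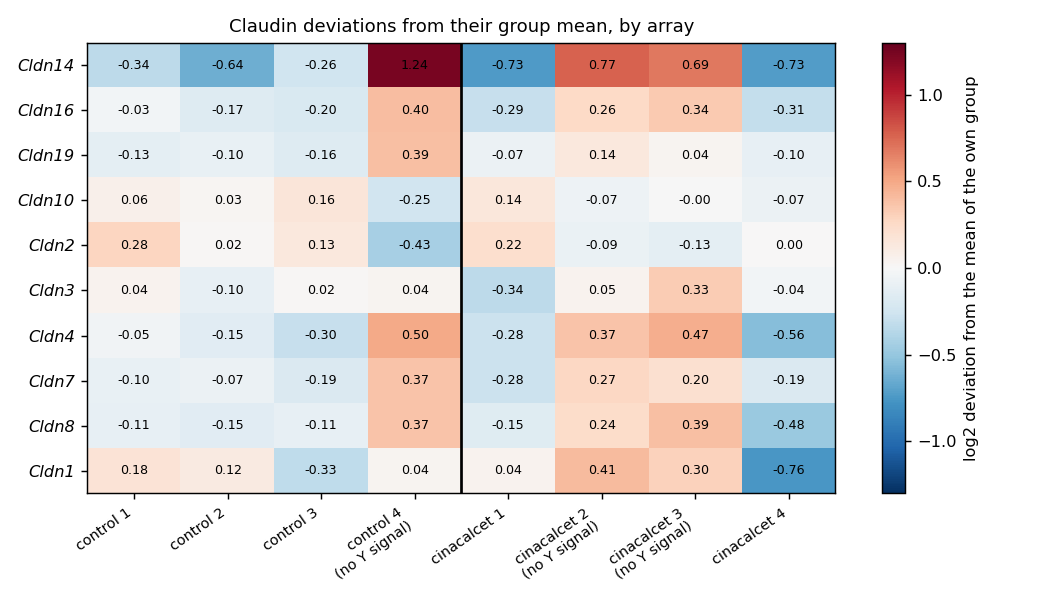
Deviation of each claudin on each array from the mean of its own group, in log2 units, with arrays in columns and genes in rows. Control 4, cinacalcet 2 and cinacalcet 3, the arrays without Y-linked signal, are above their group means for every member but Cldn2 and Cldn10. Control 4 is only slightly above for Cldn3 and Cldn1. These arrays are below their group means for Cldn2 and Cldn10, cinacalcet 3 only slightly for Cldn10.

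With a block for Y-linked signal, 4 of 10 members were called, beside 17.0% of all genes: Cldn14 and Cldn7 higher, Cldn16 and Cldn10 lower. On the 5 arrays with Y-linked signal alone, 1 of 10 was called, Cldn14, beside 1116 of 14209 genes. The differences of the 3 other genes on those 5 arrays were -0.26 for Cldn16, -0.41 for Cldn10 and 0.22 for Cldn7, and on the 3 arrays without the signal -0.20, -0.15 and 0.20. The block fit pools these differences, and the second subset holds 1 control array, so they are a description. The 2 subsets had opposite signs for Cldn2 (-0.27 and 0.08), Cldn8 (-0.09 and 0.05) and Cldn1 (-0.36 and 0.30).

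**Figure D4:**
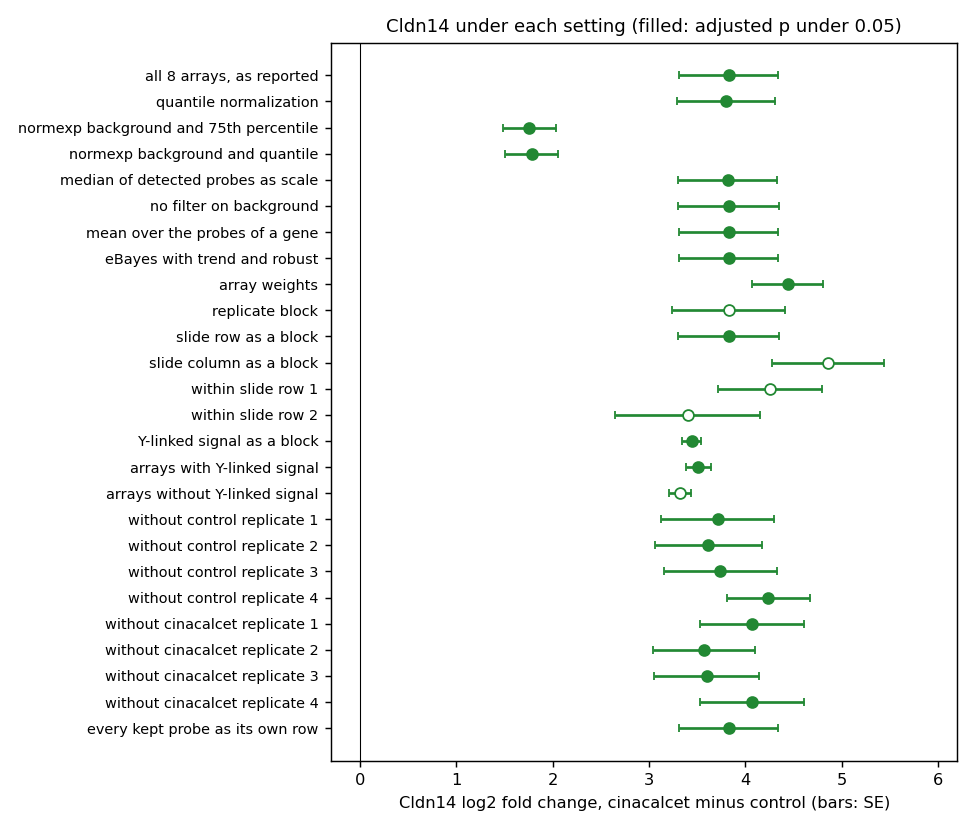
Log2 fold change of Cldn14, cinacalcet minus control, under each processing setting in which it could be fitted, with standard error bars and filled points where the adjusted p is under 0.05. The values lie between 3.32 and 4.86 except with normexp background correction, where they are 1.76 and 1.78.

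Of 21 other claudins on the array, 8 were tested and 0 were called in limma, with 0 at an unadjusted p under 0.05. Over all genes tested these shares were 8.02% and 3969 of 14209. Their median log2 fold change was 0.10, beside -0.03 for all genes. Of the 13 not tested, 12 were well above background on no array. Cldn22 was well above background on 2 control and 4 cinacalcet arrays, and its log2 fold change of 1.54 had a wide 95% interval of -0.06 to 3.14 (adjusted p = 0.193 in limma). Cldn9 was at -2.64 ± 0.33 in control and -3.00 ± 0.18 with cinacalcet (SD, n = 4 each, adjusted p = 0.21 in limma). It was called lower without control 4, at -0.52 (adjusted p = 0.0255 in limma), a fit that called 3356 of 14209 genes. Cldn9 was at -0.25 with a block for Y-linked signal (adjusted p = 0.118 in limma). Cldn5, the claudin of endothelial junctions, had a log2 fold change of 0.15 with an interval of -0.23 to 0.54, and 0.04 with that block (adjusted p = 0.765 in limma). Cldn12 was tightly measured and differed by -0.03, with an interval of -0.18 to 0.12. Cldn15 and Cldn34c1 each differed by 0.04, and Cldn23 by 0.18. Cldn11 had a log2 fold change of 0.55 and an interval of -1.85 to 2.95, with cinacalcet 4 at -5.67 where the other cinacalcet samples were between -1.32 and -0.88.

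Tight junction partners are the scaffold, polarity and adhesion proteins that anchor claudins at the junction. Of 30 tested, 1 was called higher and 2 lower, beside 3.37% and 4.64% of all genes, and the median log2 fold change was -0.05. Magi1, a scaffold with PDZ domains, was at 1.98, 2.00, 2.03 and 2.04 in controls and 2.23, 2.48, 2.62 and 2.34 in cinacalcet samples. Its groups did not overlap, and its log2 fold change was 0.41 with a standard error of 0.09 (adjusted p = 0.0372 in limma). The dimmer Magi1 probe gave 0.66 (adjusted p = 0.0612 in limma over all kept probes). Prkcz, an atypical protein kinase C of the polarity complex, fell by 0.35 on the log2 scale (standard error 0.08, adjusted p = 0.0373 in limma), while its other probes had the opposite sign, 0.07 and 0.24, and were not called. As the mean over its probes Prkcz differed by -0.01 (adjusted p = 0.918 in limma). Cxadr, a junctional adhesion protein, fell by 0.54 on its brighter probe (standard error 0.12, adjusted p = 0.0344 in limma). The dimmer Cxadr probe went the other way, 0.55 higher (adjusted p = 0.0400 in limma over all kept probes), so the array gives no single direction for that gene. With a block for Y-linked signal 5 of the 30 were called, beside 17.0% of all genes. Leaving out control 1, 2 or 3, or cinacalcet 2, 3 or 4, left 0 of the 30 called. Those fits called 218 to 533 of 14209 genes. Without cinacalcet 1 there were 2 calls and without control 4 there were 4, beside 964 and 3356 of 14209 genes.

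Of 5 tested genes whose products bind claudins or set their turnover, 0 were called in limma, and 0 had an unadjusted p under 0.05. The same shares over all genes tested were 8.02% and 3969 of 14209. Epcam, a membrane protein that binds claudin-7 and protects it from degradation, had a log2 fold change of 0.18 with a 95% interval of -0.19 to 0.55 (adjusted p = 0.493 in limma).

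Markers of the nephron segments that hold these claudins were set beside them, since RNA of whole kidney does not tell fewer cells of a type from less RNA per cell. All 6 thick ascending limb and all 6 proximal tubule markers were well above background on every array. The marker counts below stand beside 8.02% of all genes called in limma and 3969 of 14209 at an unadjusted p under 0.05. Of the 6 thick ascending limb markers 0 were called in limma and 1 had an unadjusted p under 0.05, with a median log2 fold change of 0.05. Their summed level, as intensity over the array's 75th percentile, was 560.7 to 700.8 in controls and 559.7 to 718.8 in cinacalcet samples. For the proximal tubule, 0 of 6 markers were called in limma, with 1 at an unadjusted p under 0.05, and the summed level was 971.6 to 1179 in controls and 940.5 to 1141 in cinacalcet samples. No marker of the distal convoluted tubule (0 of 4), principal cells (0 of 6), thin limb (0 of 3) or podocytes (0 of 6) was called in limma, and 2, 2, 1 and 1 of them had an unadjusted p under 0.05. Among 7 intercalated cell markers 3 had an unadjusted p under 0.05 and 1 was called, Slc4a9, a bicarbonate transporter, higher by 0.61 (adjusted p = 0.0471 in limma). That call held in 2 of the 8 fits that left out 1 array, without control 4 and without cinacalcet 1. Over all kept probes the same Slc4a9 probe had an adjusted p of 0.0539 in limma. The dimmer Slc4a9 probe gave 0.46 there (adjusted p = 0.0698 in limma).

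**Figure D5:**
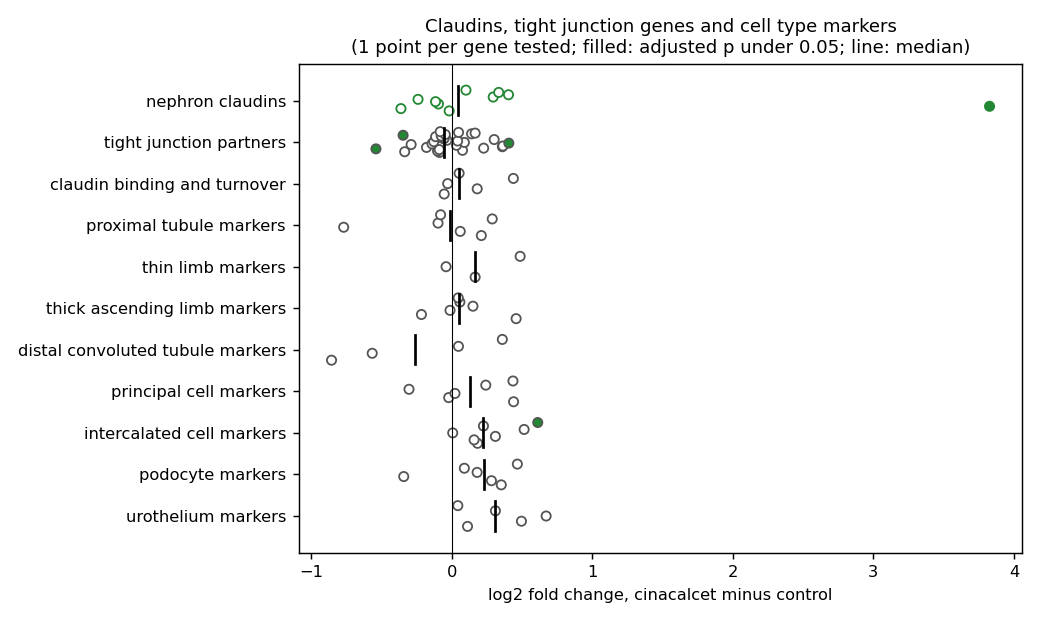
Log2 fold change, cinacalcet minus control, of each gene tested among the 10 members, the tight junction and claudin-binding genes and the markers of nephron segments, podocytes and urothelium, 1 list a row, with the list median as a line and genes at an adjusted p under 0.05 filled. Cldn14 at 3.83 lies far to the right of the other members, and the other filled points are Magi1 (0.41), Prkcz (-0.35), Cxadr (-0.54) and Slc4a9 (0.61).

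Markers of some other tissues moved with treatment. Of all 14209 genes tested, 8.02% were called in limma and 3969 had an unadjusted p under 0.05. All 3 red cell markers fell, Hba-a1 by 1.92, Hbb-bs by 2.13 and Alas2 by 2.26 log2 units, with summed levels of 396.3 to 565.5 in controls and 79.6 to 263.6 in cinacalcet samples. In both groups all 3 were lower on every array without Y-linked signal than on those with it, an order held by 22.0% of all genes. Those arrays were 2 of 4 cinacalcet and 1 of 4 control arrays, so these falls hold the treatment difference and that split together. Of 5 macrophage and lymphocyte markers tested, Adgre1 fell by 1.65 and Csf1r by 0.56 (its dimmer probes differed by -0.61, which was called, and -0.05, which was not), and the summed level was 31.0 to 34.2 in controls and 20.9 to 26.5 in cinacalcet samples. The brown fat gene Ucp1, 1 of 5 adipose markers to be called, fell by 5.73, a size not well measured since its spot was not well above background on cinacalcet 1 and 3, and by 3.03 with normexp. Summed adipose levels were 35.8 to 113.5 in controls and 17.5 to 47.8 in cinacalcet samples. Of urothelium, which also expresses claudins, 0 of 5 markers were called in limma and 0 had an unadjusted p under 0.05, with summed levels of 4.38 to 15.0 and 6.12 to 18.8. Apart from Ucp1, each of these calls ended without control 2, control 3 or cinacalcet 2, and some also without control 1 or cinacalcet 3, with adjusted p of up to 0.0691 in limma. No endothelial marker (0 of 5) or adrenal marker (0 of 3 tested) was called in limma, and 0 and 1 of them had an unadjusted p under 0.05. The part of these markers in the claudin values was not tested.

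The 5 genes whose level followed that of Cldn14 most closely over the 8 arrays were Cep131, Srsf5, Ggt6, Niban2 and S100a9. Their Pearson correlations with Cldn14 were 0.997, 0.992, 0.991, 0.985 and 0.985. Those values carry the treatment difference and the array split together, and the arrays share both, so they are a description with no test. Cep131, a centrosome protein, kept a correlation of 0.980 after group means were removed, while its own log2 fold change was 0.24 (adjusted p = 0.0595 in limma). S100a9, a neutrophil granule protein, had the largest difference of the 5, at 1.81 (adjusted p = 0.0127 in limma).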

How the data were processed

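Total kidney RNA of 8 mouse samples was measured on Agilent arrays in the Cy3 channel, 1 array per sample. Groups and replicate numbers were taken from the sample titles. The deposited files hold each array's spot intensity on a linear scale, background-corrected by Agilent Feature Extraction 11.0.1.1 per the file headers, while the submitters' processing notes name version 9.5. No normalization between arrays is recorded in the headers.

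Control and outlier spots were removed. Repeat spots of a probe were averaged, log2 was taken and each array's 75th percentile over its non-control spots was subtracted. Probes were named through a RefSeq table of assembly GRCm38.p6, by accession, which named 27235 of 55681 probes. A probe was kept if well above background on 4 or more of the 8 arrays, and the brightest probe stood for its gene. Groups were compared with lmFit and eBayes in limma 3.58.1 under R 4.3.3, without covariates, with Benjamini-Hochberg adjustment over 14209 genes. The fit was tested on simulated data.

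The members and gene lists were chosen with earlier results of these data known. The text names all members, every other claudin tested, list genes past the threshold (for claudin-binding genes, where none passed, the 2 with the lowest p, of which 1 is not reported here) and the 5 genes most correlated with Cldn14. Alternatives covered normalization, background correction, filters, probe choice, eBayes settings, array weights, blocks and leaving out each array. Normexp used the median spot signal.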

Additional observations from a re-analysis of the deposited data

Results flagged for a closer look

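In 4 of 36 claudin groups of 4 arrays, 1 array lay far from the other 3 by Dixon's ratio, where chance gives about 1 in 20. In 3 of the 4 that array was control 4, which had no Y-linked signal. Cldn5 was at 1.88 on control 4 and between 1.55 and 1.58 on the other controls. Cldn19 was at 1.34 on control 4, where the other controls were between 0.79 and 0.85. Cldn8 was at 2.61 on control 4, with the other controls between 2.09 and 2.13. The remaining one was Cldn11 on cinacalcet 4, at -5.67, where the other cinacalcet samples lay between -1.32 and -0.88 and the probe was not well above background on that array alone.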

How the results depend on the processing

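The count of genes changed, 1139, was 367 with no filter on background, 5438 with array weights, 34 with the slide column as a block, 1 within slide row 1, 0 within slide row 2 and 1795 over every kept probe. It was 2417 with a block for Y-linked signal and 0 on the arrays without Y-linked signal. Leaving out 1 array gave 218 (without control 2) to 3356 (without control 4), and the count was at least 1.5 times lower without control 1, 2 or 3 or cinacalcet 2, 3 or 4. The number of members called, 1, was 2 with normexp and quantile normalization or with trend and robust settings, 6 with array weights, 4 with a block for Y-linked signal, and 1 to 3 when 1 array was left out. It was 0 with the filter on all 8 arrays, which drops Cldn14, and 0 with the slide column as a block, within slide row 1, within slide row 2 and on the arrays without Y-linked signal.

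The labels state no pairing by replicate number. Deviations of same-numbered arrays had correlations of 0.34, -0.54, -0.36 and -0.56. Both arrays numbered 1 had Y-linked signal, while numbers 2, 3 and 4 each set an array with it against an array without. The correlations therefore cannot tell whether the samples were paired. With the replicate block 0 genes and 0 members were called (2869 genes at an unadjusted p under 0.05), and Cldn14 stayed at 3.83 with an adjusted p of 0.0849 in limma. Cldn14 also missed the threshold at 4.86 with the slide column as a block, 4.25 within row 1, 3.40 within row 2 and 3.32 on the arrays without Y-linked signal, settings with fewer arrays or residual degrees of freedom. It was higher in all 25 alternatives that could be fitted, past the threshold in 20, and 3.57 to 4.24 when 1 array was left out.

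Uncalled genes changed sign as follows, and the cause was not tested. With array weights Cldn16 was 0.15, Cldn19 0.031, Cldn1 0.19 and Cldn15 -0.0049. The slide column block set only controls with Y-linked signal against cinacalcet arrays without it. With that block Cldn16 was 0.32, Cldn19 0.12, Cldn1 0.42, Cldn12 0.012 and Cldn15 -0.092. Within slide row 1 Cldn16 was 0.11 and Cldn1 0.26. Within slide row 2 Cldn8 was -0.14, Cldn11 -1.38 and Cldn34c1 -0.10. With a block for Y-linked signal Cldn8 was -0.041. On the arrays with Y-linked signal Cldn8 was -0.093, Cldn11 -0.53, Cldn15 -0.039, Cldn34c1 -0.10 and Cldn5 -0.048. On the arrays without it Cldn2 was 0.082, Cldn1 0.30, Cldn12 0.077 and Cldn22 -0.26. With quantile normalization Cldn12 was 0.037 and Cldn34c1 -0.010. With normexp and the 75th percentile Cldn23 was -0.018 and Cldn34c1 -0.048, and with normexp and quantile normalization Cldn34c1 was -0.0018. Leaving out 1 array gave -0.21 to 0.040 for Cldn16, -0.17 to 0.014 for Cldn19, -0.029 to 0.26 for Cldn8, -0.16 to 0.23 for Cldn1, -0.025 to 0.10 for Cldn15 and -0.032 to 0.13 for Cldn34c1. Cxadr was 0.0075 as the mean over its probes. Signal over background limits Cldn14, Cldn11, Cldn22 and Ucp1, each not well above background on 1 or 2 arrays.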
